A study of Mus musculus with 2 samples.

Results

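The tetraspanins were examined in osteoclasts and macrophages grown from mouse bone marrow, with 1 microarray of each cell type. The members are all genes read by a probe set with a single gene symbol that begins with Tspan and a digit, together with Cd9, Cd37, Cd53, Cd81, Cd82 and Cd151. They number 25 of the 18193 genes on the array and are read by 56 of 34945 such probe sets. Cd63 and Tspan7 are not analysed here. Where a gene has several probe sets, the one whose mean log2 signal was highest stands for it, so the choice does not use the difference between the arrays.

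Marrow came from C57/Black6 mice aged 8 weeks, and cells that adhered after 3 days in M-CSF (macrophage colony-stimulating factor) served as progenitors of both cell types. The osteoclast group was these progenitors given M-CSF for 6 days together with RANKL, which turns them into osteoclasts. The macrophage group was the same kind of progenitor kept in M-CSF alone for 6 days, so that M-CSF was present in both. The labels do not say whether both cultures came from the same animals, how many animals were used, or whether osteoclasts were separated from cells that had not fused.

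Tetraspanins are small proteins that cross the membrane several times and expose a short and a long loop outside the cell. They bind each other and integrins, immunoglobulin-like proteins and membrane proteases, and so gather these into patches of membrane. In the monocyte lineage they are known for their part in cell fusion: mice that lack both Cd9 and Cd81 form multinucleated macrophages spontaneously. Another branch, called TspanC8 for the cysteines of its long loop, carries the protease ADAM10 to the cell surface and steers what it cuts.

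The values are deposited intensities on a linear scale, 1 per probe set and array. The osteoclast array was dimmer: over the 19406 probe sets above the floor in both arrays, its signal was 1.37-fold lower at the median (log2 difference, osteoclast minus macrophage, -0.45). Differences in the following are on the log2 scale, osteoclast minus macrophage, relative to this shift, and the value as deposited is 0.45 lower unless a bound was limited to 0. Only signals above a floor were taken as measured. The floor was the 95th percentile of 78 probe sets of olfactory and vomeronasal receptors, 25.8 in the osteoclast array and 28.3 in the macrophage array. With 1 array per group nothing could be tested. Probe sets of the same gene differed from each other with an SD of 0.43 (log2; 12132 probe sets, 4608 genes), the one measure of error available, and it holds no variation between cultures or animals. With whole cultures, fewer cells of a type and less RNA per cell cannot be told apart.

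The labels were checked against marker genes. All 10 osteoclast markers were at least 2-fold higher in the osteoclast array, with a median of 5.02, and among them the cathepsin K gene Ctsk had a signal of 9202 in osteoclasts and 134 in macrophages. All 10 macrophage markers were above the floor in both arrays, 5 of them at least 2-fold lower in osteoclasts. Xist, an RNA of female cells, had a signal of 22.1 in the osteoclast array and 1872 in the macrophage array, and the Y-linked Eif2s3y 321 in the osteoclast array and 0.571 in the macrophage array. The arrays thus differ in the sex of their RNA, and every difference between treatments carries this difference between animals with it. Granulocyte markers were higher in the osteoclast array, 8 of 8 by at least 2-fold relative to the shift and 3 of 8 as deposited, with a summed signal of 6057 in osteoclasts and 3227 in macrophages.

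Of the 25 tetraspanins, 16 passed the floor in both arrays. Another 1 did so in osteoclasts only and 4 in macrophages only, and 4 were below it throughout. The 21 measured members are 84% of the family, where 63.2% of all genes were measured. Among them Cd82 was at least 2-fold higher in osteoclasts, while Cd81, Tspan9, Tspan13 and Tspan33 were at least 2-fold lower, and 16 differed by less. The share of higher members was 4.76%, against 6.52% of the 11496 measured genes. The share of lower members was 19.0%, against 6.34% of all measured genes. The median difference of the measured members was -0.20, with quartiles of -0.92 and 0.31, against 0.00 with quartiles of -0.37 and 0.38 over all measured genes. A member above the floor in 1 array only passed because it is high there. Of the 16 measured in both arrays, 3 were lower and 1 was higher by this measure, where 6.55% of the 10028 genes measured in both were lower and 6.02% higher. Their median was -0.25, against -0.01 over those genes. As deposited, without the shift, 0 members were 2-fold higher and 7 were 2-fold lower, against 2.63% and 17.0% of all measured genes.

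**Figure D1:**
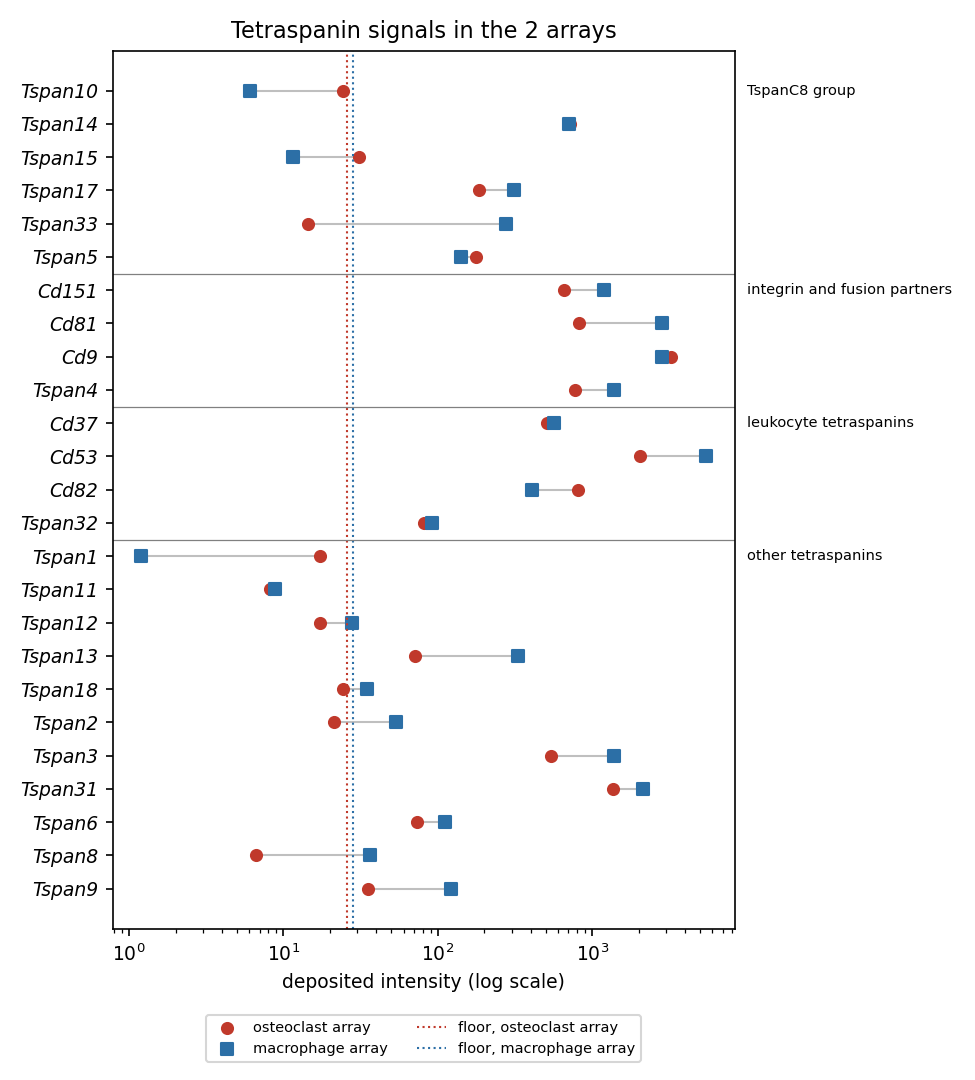
Deposited intensity (log scale) of the 25 tetraspanins in the osteoclast array (circles) and the macrophage array (squares), 1 row per gene in 4 groups by role, with dotted lines at the floor of each array. Cd82 lies to the right in osteoclasts, with 806 against 409.8, and Tspan33 lies below the floor there, with 14.3 against 278.

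The TspanC8 group, the partners of ADAM10, had members on both sides of the shift. Of its 6 genes 5 were measured, with a median of 0.47. At least 2-fold higher were 0 and lower 1, against 6.52% and 6.34% of all measured genes. Tspan33, found in red cell precursors, activated B cells and macrophages, had a signal of 14.3 in osteoclasts, below the floor, and 278 in macrophages. It was at least 7.89-fold lower in osteoclasts relative to the shift, and at least 10.8-fold lower as deposited. All 4 of its probe sets were above the floor in the macrophage array only, with bounds of -2.98, -2.33, -1.56 and -0.43. The brightest and 1 other of these have the Affymetrix suffix for probes that may match other transcripts, and the second brightest, whose probes match transcripts of the same gene, read 13.7 in osteoclasts and 177 in macrophages. The bounds differ because the probe sets differ in brightness in macrophages, and the osteoclast signal was between 2.53 and 14.3 in each.

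Other members of the group lay on the opposite side or near the shift. Tspan5, reported to aid the fusion of osteoclast precursors in a mouse macrophage line, had a signal of 177 in osteoclasts and 141 in macrophages, a difference of 0.78. Its other probe set read 69.4 in osteoclasts and 57.5 in macrophages (0.72), so both probe sets put the osteoclast array above the macrophage array, by less than 2-fold. Tspan14, which carries ADAM10 in blood cells and endothelium, read 721 in osteoclasts and 710.2 in macrophages (0.47, and 0.02 as deposited). Its single probe set has the suffix for probes shared between genes.

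Tspan17, also a carrier of ADAM10, read 185 in osteoclasts and 312 in macrophages, a difference of -0.31, and -0.11 by its other probe set. Tspan15, the member that directs ADAM10 to N-cadherin, was above the floor in osteoclasts only, with 30.8 against 11.5, and this signal is close to the floor. Its bound was 0.57, under 2-fold, and 1.28 with the floor at the 40th percentile of all probe sets. Tspan10, known as oculospanin, read 24.2 in osteoclasts and 6.06 in macrophages, below the floor in both arrays, so its level was not measured in either.

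Among the members known from integrin complexes and fusion, Cd81 and Cd9 lay on opposite sides of the shift. Cd81, on lymphocytes a part of the B cell coreceptor, had a signal of 826 in osteoclasts and 2826 in macrophages, a difference of -1.32 or 2.50-fold lower. It ranked 343 from the lowest among the 10028 genes measured in both arrays. Cd9, a close partner in mouse macrophages, read 3258 in osteoclasts and 2845 in macrophages, a difference of 0.64, which is under 2-fold. Each has 1 probe set, so neither value has a second reading. On the scale of the deposited values the difference of Cd9 was 0.20 and that of Cd81 -1.77.

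Cd151, the partner of laminin-binding integrins, read 660.5 in osteoclasts and 1185 in macrophages (-0.39). Its 5 measured probe sets ranged from -0.73 to -0.21, all below the shift, though the -0.73 is a bound that could not lie above it. The probe set that stands for the gene has the suffix for probes that may match other transcripts. A probe set without this suffix, measured in both arrays, gave -0.32. Tspan4, a component of the trails left by migrating cells, read 774 in osteoclasts and 1390.1 in macrophages (-0.40). All 4 genes of this group were measured, with a median of -0.39. At 2-fold 0 were higher and 1 lower, against 6.52% and 6.34% of all measured genes. Stromal cells also carry these tetraspanins, and 7 of 7 stromal markers were measured. The sums of the deposited stromal signals were 7567 in osteoclasts and 12866 in macrophages. With the shift taken into account, 3 stromal markers lay above it and 4 below (median -0.14), and only Col3a1 reached 2-fold, at 1.16. Without the shift Col3a1 stood at 0.71, short of 2-fold, whereas Cxcl12 (-1.24) and Sparc (-1.27) passed 2-fold on the macrophage side. Megakaryocyte and platelet markers, whose cells are rich in Cd9, had 7 of 7 measured, but only 3 in both arrays. Their deposited signals summed to 372 in osteoclasts and 357 in macrophages. Relative to the shift 5 lay above and 2 below, with a median of 0.48, or 0.03 as deposited. The part of either cell type in the values of Cd9 and Cd81 was not tested.

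**Figure D2:**
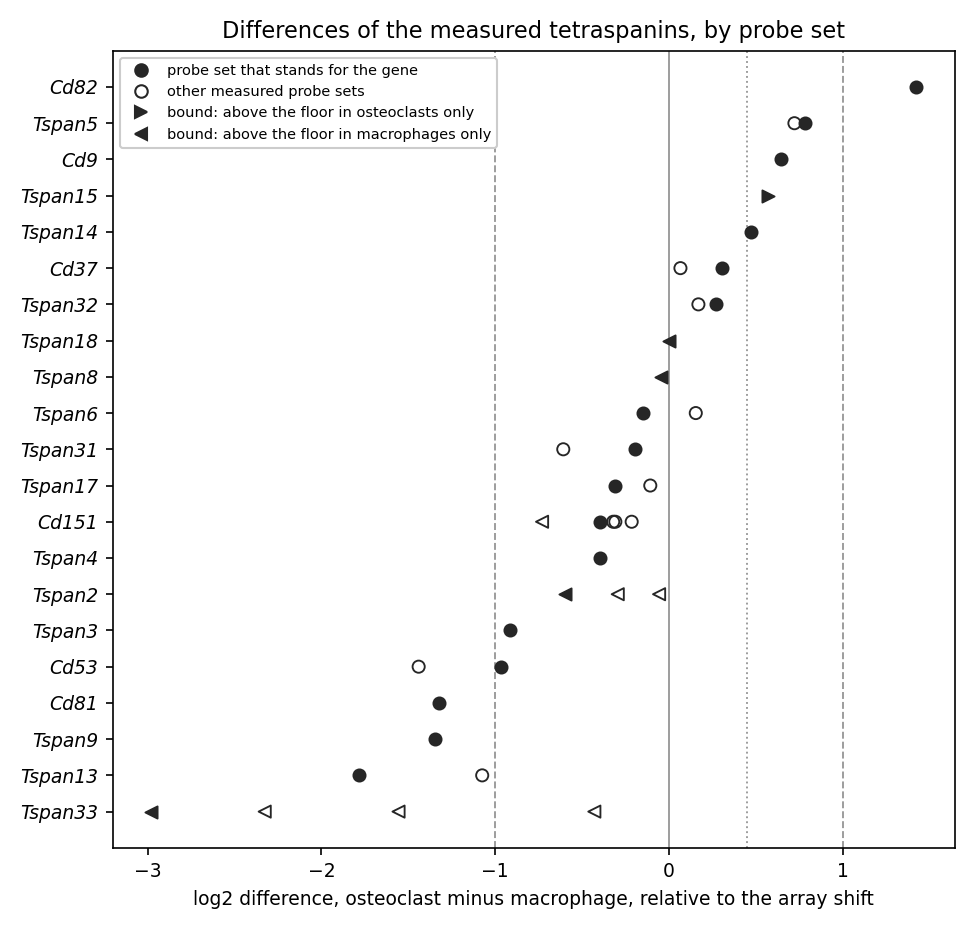
Log2 difference, osteoclast minus macrophage, relative to the shift between the arrays, for every measured probe set of the 21 measured tetraspanins, sorted by the probe set that stands for the gene (filled). Triangles are bounds of probe sets above the floor in 1 array, dashed lines mark 2-fold, and the dotted line at 0.45 is the point of no difference in the deposited values. Cd82 lies beyond the upper dashed line at 1.42, and Cd81, Tspan9, Tspan13 and Tspan33 lie beyond the lower one.

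The leukocyte tetraspanins went both ways, and all 4 were measured in both arrays, with a median of 0.29. Cd82, studied as a suppressor of metastasis and a restraint on integrin and growth factor receptors, had a signal of 806 in osteoclasts and 409.8 in macrophages. Its difference of 1.42, 2.68-fold higher, ranked 243 from the highest among the 10028 genes measured in both arrays. As deposited the difference was 0.98, or 1.97-fold, just short of 2-fold, so that its count as a 2-fold gene depends on the shift. The other Cd82 probe set was below the floor in both arrays, with 9.88 in osteoclasts and 12.7 in macrophages.

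Cd53, a tetraspanin found on nearly all leukocytes, read 2052 in osteoclasts and 5477 in macrophages. Its difference of -0.97 is just under 2-fold relative to the shift, and is -1.42 as deposited. The other Cd53 probe set read 27.9 in osteoclasts, near the floor, and 103 in macrophages (-1.44). Cd37, a leukocyte tetraspanin best known from B cells, read 512 in osteoclasts and 565 in macrophages (0.31, and 0.07 by its other probe set). Tspan32, of blood cells, read 81.2 in osteoclasts and 91.9 in macrophages (0.27, and 0.17 by its other probe set). These last 2 genes lay above the shift by less than the probe set SD, and below 0 as deposited.

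Markers of other leukocytes are given beside this group. The granulocyte markers described above were at least 2-fold higher in osteoclasts in 8 of 8 cases relative to the shift, a count that depends on the shift as that of Cd82 does (3 of 8 as deposited). Their differences lay between 1.01 for Ngp and 1.75 for Mpo, the same direction as Cd82 and the opposite of Cd53. Of 5 B lymphocyte markers with a probe set, 3 were measured, with sums over the 5 of 206 in osteoclasts and 199 in macrophages. The measured markers were Ighm, at least 2-fold higher with 157 in osteoclasts and 80.0 in macrophages (1.42, and 0.97 as deposited), Cd79b with 16.4 in osteoclasts and 64.7 in macrophages (a bound of -0.88), and Pax5 with 12.9 in osteoclasts and 38.3 in macrophages (a bound of -0.12). Cd79a and Ms4a1 were below the floor in both arrays. Of 5 T and NK lymphocyte markers 1 was measured, with Cd3e, Cd3d and Cd3g below the floor. The part of these cells in the leukocyte tetraspanin values was not tested.

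The promoters of this group are shown because 3 of its 4 genes share a motif, so this sharing is the reason for the display and not a result. The sequences are from RefSeq, build GRCm38.p6, and run from 250 bases before to 50 bases after an annotated start, which is position 1. Capitals mark matches, on either strand, to GAGGAAGT, the core of PU.1, an ETS factor of myeloid and B cells, to TGGAAA, the core of NFAT, the factor RANKL activates, to CACGTG, the E-box of the MITF and TFE factors, to TGANTCA, the AP-1 site, and to GGGCGG, the GC box.
Cd82, chr2:93461802-93462101, minus strand: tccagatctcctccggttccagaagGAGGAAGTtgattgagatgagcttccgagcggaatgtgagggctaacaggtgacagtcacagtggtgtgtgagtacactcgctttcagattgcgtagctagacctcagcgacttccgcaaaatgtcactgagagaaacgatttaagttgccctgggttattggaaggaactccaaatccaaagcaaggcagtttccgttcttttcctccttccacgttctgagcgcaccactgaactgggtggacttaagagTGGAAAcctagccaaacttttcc
Cd37, chr7:45238790-45239089, minus strand: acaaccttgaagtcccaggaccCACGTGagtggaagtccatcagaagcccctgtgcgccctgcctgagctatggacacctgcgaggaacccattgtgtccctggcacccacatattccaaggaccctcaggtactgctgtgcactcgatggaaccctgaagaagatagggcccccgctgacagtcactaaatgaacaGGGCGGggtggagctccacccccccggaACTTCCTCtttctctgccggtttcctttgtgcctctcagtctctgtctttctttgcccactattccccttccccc
Cd53, chr3:106790100-106790399, minus strand: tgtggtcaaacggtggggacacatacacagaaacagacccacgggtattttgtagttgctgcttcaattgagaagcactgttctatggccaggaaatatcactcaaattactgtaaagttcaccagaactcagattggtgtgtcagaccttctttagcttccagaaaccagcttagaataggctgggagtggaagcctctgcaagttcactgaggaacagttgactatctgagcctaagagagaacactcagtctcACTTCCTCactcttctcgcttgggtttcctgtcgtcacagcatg
The PU.1 letters began at position -225 of this Cd82 window, at -25 of Cd37 and at 7 of Cd53, on the opposite strand in Cd37 and Cd53. Cd82 has 4 annotated windows, and the other 3 do not hold these letters. Tspan32 has 1 window and no match to any of the 5 motifs.

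Of the 25 members, 24 had a promoter in the table, with 34 windows in all. The PU.1 letters stood in 4 of these windows, the fourth in a window of Tspan14, and 3.20% of all 32851 windows hold them. The NFAT letters stood in 5 windows of the family (21.4% of all windows), the E-box in 2 (7.15%), the AP-1 site in 2 (7.81%) and the GC box in 15 (35.7%). The matches are a description of letters and not of binding. Of the genes with the PU.1 letters, Cd82, which also has the NFAT letters in the window above, was at 1.42. Cd53 was at -0.97, under 2-fold, Cd37 at 0.31 and Tspan14 at 0.47, so these genes did not share a direction. Outside Cd82, the NFAT letters stood in windows of Tspan4 (-0.40), Tspan2 (a bound of -0.60) and Tspan1, which was not measured.

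The lower members were Cd81, Tspan33, Tspan13 and Tspan9, and the promoters of the first 3, which have 1 annotated window each, are printed for comparison, with capitals for the same 5 motifs.
Cd81, chr7:143052500-143052799, plus strand: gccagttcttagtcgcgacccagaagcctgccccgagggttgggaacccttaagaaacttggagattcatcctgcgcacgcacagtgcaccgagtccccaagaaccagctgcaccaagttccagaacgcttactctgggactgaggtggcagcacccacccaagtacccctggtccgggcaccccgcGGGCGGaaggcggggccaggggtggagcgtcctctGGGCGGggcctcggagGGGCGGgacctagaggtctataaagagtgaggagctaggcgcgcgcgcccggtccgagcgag
Tspan33, chr6:29693964-29694263, plus strand: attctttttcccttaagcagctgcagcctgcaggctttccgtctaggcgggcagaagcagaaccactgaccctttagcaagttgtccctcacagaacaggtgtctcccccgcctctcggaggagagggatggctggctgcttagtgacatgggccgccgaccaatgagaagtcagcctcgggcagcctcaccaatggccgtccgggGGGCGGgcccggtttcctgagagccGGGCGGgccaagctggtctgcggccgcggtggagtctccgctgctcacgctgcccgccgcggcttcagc
Tspan13, chr12:36042429-36042728, minus strand: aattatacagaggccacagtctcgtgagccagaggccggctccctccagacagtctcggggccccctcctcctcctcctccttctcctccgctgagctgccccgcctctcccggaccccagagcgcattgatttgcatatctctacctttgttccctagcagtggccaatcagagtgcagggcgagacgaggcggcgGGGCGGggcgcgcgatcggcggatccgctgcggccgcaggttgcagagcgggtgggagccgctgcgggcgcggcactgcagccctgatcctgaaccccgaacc
The only matches in these windows were GC boxes, 3 in Cd81, 2 in Tspan33 and 1 in Tspan13. Their GC content was 65.7%, 65.0% and 67.3%, against a median of 57.8% over the family's windows and 52.7% over all windows. The windows of Tspan9, also lower, had 57.0%, 52.7%, 58.0% and 73.3%. Windows of members within 2-fold ran from 38.3% for Tspan6 to 73.3% for Tspan5, so this GC content does not set the lower members apart.

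Outside these groups, 11 members have other or less settled roles, of which 8 were measured, with a median of -0.40. At 2-fold 0 were higher and 2 lower, against 6.52% and 6.34% of all measured genes. Of the 8, 7 lay below the shift, and 5 of these were measured in both arrays. Tspan2 and Tspan8 passed the floor in macrophages only, so their bounds could not lie above the shift. Tspan18 had a bound limited to 0. Tspan13, known as NET-6 and reported in a mouse macrophage line to restrain osteoclast formation, had a signal of 70.7 in osteoclasts and 332 in macrophages. Its difference of -1.78, 3.44-fold lower, ranked 143 from the lowest among the genes measured in both arrays. The other Tspan13 probe set read 66.9 in osteoclasts and 192 in macrophages (-1.07), so both passed 2-fold in the same direction. Tspan13 and Tspan5, described above, were thus placed on opposite sides of the shift by both probe sets of each.

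Tspan9, a tetraspanin of platelets that organises the collagen receptor there, read 35.2 in osteoclasts and 123 in macrophages, a difference of -1.35. The osteoclast signal is close to the floor of 25.8, and the other Tspan9 probe set was below the floor in both arrays. Of the platelet markers, Treml1 read 15.6 in osteoclasts and 71.2 in macrophages, and Vwf 95.5 in osteoclasts and 13.9 in macrophages, opposite directions within 1 list. Tspan3, studied in leukaemic stem cells, read 539 in osteoclasts and 1390.3 in macrophages (-0.92, and -1.37 as deposited). Tspan31, a gene amplified in sarcomas, read 1357 in osteoclasts and 2126 in macrophages (-0.20, and -0.61 by its other measured probe set).

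Tspan6, an X-linked tetraspanin that restrains antiviral signalling in human cells, read 73.2 in osteoclasts and 111 in macrophages (-0.15). Its other probe set gave 0.15, so its probe sets disagree on the side of the shift. As Xist separates the arrays by sex, the difference of this gene and the sex of the RNA cannot be told apart. Tspan2, known from myelin-forming cells, was above the floor in macrophages only by all 3 of its probe sets, the brightest with 21.1 in osteoclasts and 53.3 in macrophages (a bound of -0.60, and -1.05 as deposited).

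The last measured members were dim. Tspan18, a partner of the calcium channel Orai1 in endothelium, read 24.2 in osteoclasts and 34.6 in macrophages by 1 of 3 probe sets. Tspan8, a tetraspanin of epithelial tumours and their exosomes, read 6.61 in osteoclasts and 36.4 in macrophages by 1 of 5 probe sets, and the other 4 were below the floor in both arrays. The members below the floor in both arrays were Tspan1, with 17.2 in osteoclasts and 1.20 in macrophages, Tspan10, Tspan11 with 8.24 and 8.85, and Tspan12, a coreceptor of Norrin and Frizzled 4, with 17.2 and 27.9.

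**Figure D3:**
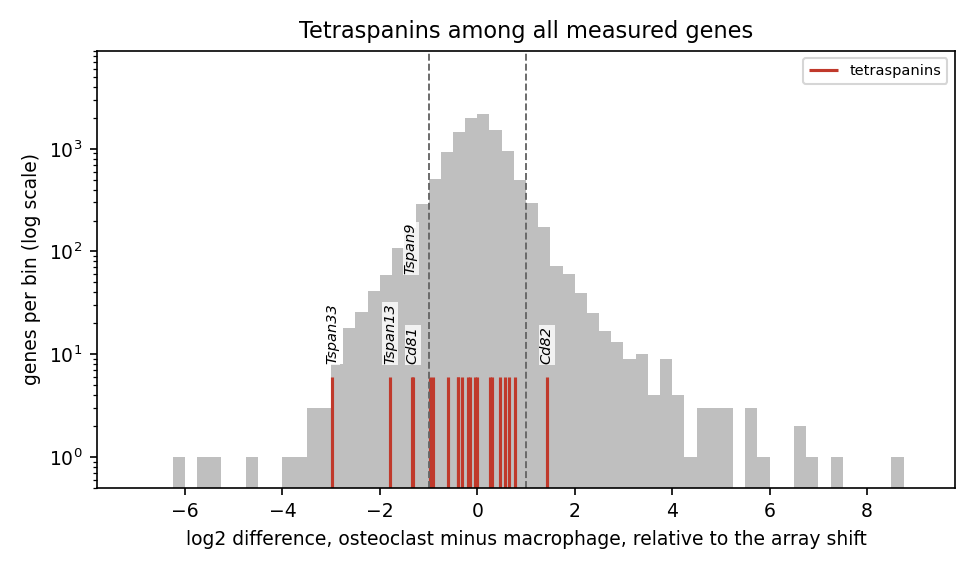
Histogram of the log2 difference, osteoclast minus macrophage, relative to the shift, over the 11496 measured genes in bins of 0.25 (log count axis), with the 21 measured tetraspanins as lines and dashed lines at 2-fold. The tetraspanins reach from -2.98 (Tspan33, a bound) to 1.42 (Cd82), inside the range of all genes.

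Where a member has a second measured reading, the probe sets mostly stood close together. Over 20 probe sets of 9 members above the floor in both arrays, the SD between probe sets of a gene was 0.23, against 0.43 over all genes. Among the 5 members at least 2-fold apart, Tspan13 and Tspan33 have a second measured probe set, and Cd81, Cd82 and Tspan9 do not. The Tspan13 probe sets stood further apart than most, at -1.78 and -1.07. The Tspan33 bounds, from -2.98 to -0.43, did not enter this SD.

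Several members are neighbours in the genome, in the gene order of RefSeq. No protein-coding gene lies between Tspan32 and Cd81 on chromosome 7, and these differed by 0.27 and -1.32. Tspan18 and Cd82 are adjacent on chromosome 2, with Tspan18 near the floor and Cd82 at 1.42. Tspan11 and Tspan9 are adjacent on chromosome 6, with Tspan11 below the floor and Tspan9 at -1.35. Cd151 and Tspan4, with 1 gene between them on chromosome 7, had similar differences of -0.39 and -0.40. Tspan18 had a bound limited to 0 and Tspan11 was not measured, so neither of their pairs could have both members at least 2-fold apart.

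The partners of tetraspanins were read from 5 lists holding 47 genes, of which 38 were measured. Relative to the shift 1 of them, 2.63%, was at least 2-fold higher, against 6.52% of all measured genes. At least 2-fold lower were 4, or 10.5%, against 6.34% of all measured genes, and the median was -0.11. Among 9 integrin chains, all measured, Itgb3, the chain of the osteoclast vitronectin receptor, read 590.0 in osteoclasts and 46.1 in macrophages (4.13, and 1.96 by its other probe set). Itgb3 is also among the 10 osteoclast markers used above to check the labels. Itga6, a chain of the laminin receptors that bind Cd151, read 401 in osteoclasts and 3017 in macrophages (-2.46, and -3.09 by its other probe set). The other 7 chains, Itgb1 among them at 0.13, were within 2-fold.

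In the list of ADAM10 and proteins it cuts, 9 of 10 were measured, with 0 higher and 2 lower at 2-fold and a median of -0.70. These counts include the gene of another protease, Adam17 (-0.45). Over all measured genes the shares were 6.52% higher and 6.34% lower. Adam10 itself read 1337 in osteoclasts and 2966 in macrophages (-0.70), with its probe sets from -0.81 to 0.18. The receptor gene Notch1 read 61.3 in osteoclasts and 199.6 in macrophages (-1.25, and -1.17 by its other probe set). Il6ra, the interleukin 6 receptor, read 42.1 in osteoclasts and 149 in macrophages (-1.37, and -1.21 by its other probe set). Notch2 was on the other side by 1 probe set, with 527 in osteoclasts and 498 in macrophages (0.53, and 0.08 as deposited). Its other probe set gave 0, so it did not place the gene above the shift.

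Of the other membrane partners 8 of 13 with a probe set were measured, and Cd36, a scavenger receptor found in complexes with Cd9 and integrins, was the 1 lower at 2-fold. It read 1900.5 in osteoclasts and 10752 in macrophages (-2.05), and its 3 probe sets ranged from -3.41 to -2.05. Egfr, the epidermal growth factor receptor, lay nearest to 2-fold on the higher side, at 0.95, with its probe sets from -0.12 to 0.95. The immunoglobulin partners Igsf8 and Ptgfrn, which bind Cd9 and Cd81 directly, differed by -0.38 and 0.43. In this list 3 of 3 genes with a probe set were measured, with 0 at 2-fold.

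The exosome machinery, which loads vesicles rich in tetraspanins, had 9 of 10 genes measured, with a median of -0.05. On either scale 0 were at least 2-fold apart. Of all measured genes 6.52% were higher and 6.34% lower relative to the shift, and 2.63% and 17.0% as deposited. With so few genes the count does not set this list apart. Its members ran from -0.33 for Flot1 to 0.27 for Rab27a. Sdcbp, which encodes syntenin, read 4699.9 in osteoclasts and 7469 in macrophages (-0.22), and Pdcd6ip, which encodes Alix, 803 in osteoclasts and 1045 in macrophages (0.07).

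**Figure D4:**
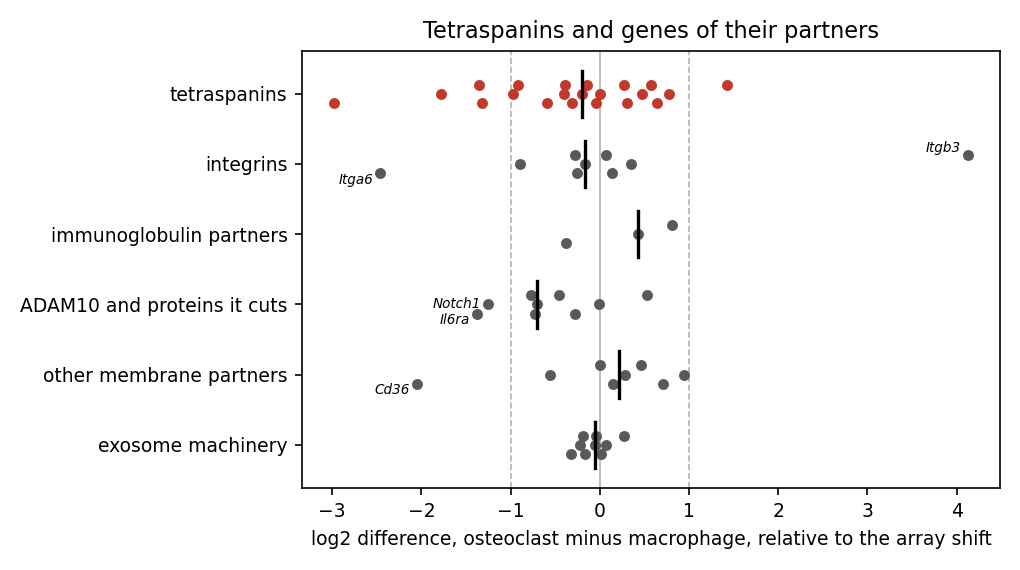
Log2 difference, osteoclast minus macrophage, relative to the shift, of the measured tetraspanins and of the measured genes of 5 partner lists, with 1 point per gene, a bar at each median and dashed lines at 2-fold. Partners at least 2-fold apart are named: Itgb3 at 4.13 on the higher side, and Itga6, Cd36, Il6ra and Notch1 on the lower.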

How the data were processed

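Total RNA (1 µg) was labelled with biotin as cRNA (Affymetrix, one-cycle) and hybridised to 1 array per cell type, per the labels' protocols. The deposited table gives a linear intensity for 45101 probe sets. How the authors condensed probes, corrected background and scaled arrays, and whether probe sets were called detected was not given in the sources used here. The deposited medians were 22.8 (osteoclast) and 27.0 (macrophage). After removal of 64 control probe sets, 34945 had 1 gene symbol in the platform annotation (which can be old) and were used, 932 had several and 9160 had none. All 25 members matched RefSeq by Entrez identifier.

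Values below the floor were raised to it, so a gene above it in 1 array has a bound, limited to 0. Genes were counted at 2-fold (1 on the log2 scale). The number of arrays limits precision. The members, lists, floor and motifs were chosen with earlier results of these data known. All members are reported, and of each partner list those 2-fold apart, while others named from the lists were chosen after their values were seen. Alternatives changed the centring, floor and probe set. The steps were run on simulated data, scored for the shift and for differences set in genes bright in macrophages. Values near the floor and bounds were not scored there. Python 3.11.15, pandas 2.3.3, numpy 2.4.6 and matplotlib 3.10.9 were used.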

Additional observations from a re-analysis of the deposited data

How the results depend on the processing

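Cd81, Tspan9, Tspan13 and Tspan33 were at least 2-fold lower under all 6 alternatives tried, and Cd82 at least 2-fold higher under 5, the exception being the deposited values without the shift. Some of these outcomes were fixed in advance. Cd81, Tspan9 and Cd82 have 1 measured probe set each, so averaging probe sets or dropping suffixes left their values unchanged. Dropping suffixes also left Tspan13 unchanged. Leaving out the shift lowers every difference, so the lower calls could not be lost there. No member at least 2-fold apart changed sign. As deposited, the counts were 0 higher and 7 lower members with a median of -0.65, 302 higher and 1950 lower among all genes, and 9 lower partner genes. The higher genes were 13.4% of all 2-fold genes as deposited and 50.7% relative to the shift. With the floor at the 40th percentile of all probe sets, 2 members were higher, Tspan15 being added. With no floor, 4 members were higher, among them Tspan1, Tspan10 and Tspan15. Tspan1 and Tspan10 are below the receptor floor in both arrays and Tspan15 in macrophages. On the other side 6 members were lower, Cd53 and Tspan8 being added. Tspan8 was at -2.07 in this setting and is below the receptor floor in osteoclasts. Among all genes 2644 were higher and 2719 lower with no floor. Cd53 passed 2-fold under quantile normalization (-1.02), with no floor (-1.03), and as the mean of its probe sets (-1.20). The bound of Tspan33 ran from -1.82 as the mean of its probe sets to -3.84 at the lower floor, and without a floor its value was -3.89. No paired analysis was possible because each group has 1 array. With 1 array a group, variation between cultures and animals is unknown.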

Other observations

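Relatives of the family that its naming rule leaves out were read in the same way. The uroplakin gene Upk1a, of bladder epithelium, read 32.7 in the osteoclast array and 46.6 in the macrophage array, a difference of -0.06, close to the floor in both. Upk1b and the photoreceptor genes Prph2 and Rom1 were below the floor in both arrays, with the highest of their signals, 15.2, for Rom1 in macrophages. The other annotated windows of Cd82 held the NFAT letters in 1 case and GC boxes in 2, and those of Tspan9 held GC boxes in 2 of 4 cases.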
